A study of Mus musculus with 24 samples.

Results

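White adipose tissue (WAT) of young mice was compared with liver, lung and kidney of the same age. The arrays were taken by the tissue and age in their labels, with no measured value used: 3 WAT arrays against 9 arrays of the other 3 tissues, 12 of the 24 arrays in the series. The series belongs to a study of glycolysis in senescent cells and aged tissues. All mice were C57BL/6J males, aged 10 weeks in the 12 arrays used here and 90 weeks in the other 12, with 3 arrays per tissue and age and no treatment in the labels. The labels name neither the fat depot nor whether a mouse gave several tissues. Each tissue, at both ages, lay on 1 slide of its own, so slide and tissue cannot be told apart, and only large differences were called.

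White fat stores triglyceride in adipocytes, each with a single large droplet coated by perilipins, and releases fatty acids on adrenergic signals and in fasting. Adipocytes also secrete hormones such as adiponectin, leptin and resistin. They share the tissue with progenitors, fibroblasts, vessels, macrophages and, in the visceral depots, a sheet of mesothelium, and the gonadal depot of male mice lies against the epididymis.

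WAT replicate 1 stood apart from the other WAT arrays. Across the tested entries the correlation of WAT replicates 2 and 3 was 0.9871, and those of replicate 1 with them were 0.9288 and 0.9404; between replicates of the other tissues the lowest was 0.9863. These correlations run over entries of the same arrays and are descriptions. In replicate 1, 671 entries lay at least 16-fold above both other WAT arrays, compared with 2 in replicate 2 and 23 in replicate 3. At least 16-fold below both others were 11 in replicate 1, 256 in replicate 2 and 43 in replicate 3.

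Genes of the epididymis were bright in that array. Levels are given here as log2 signal minus the array's 75th percentile. Lcn5, a lipocalin of the epididymal duct, stood at 8.76 in WAT replicate 1, -4.76 in replicate 2 and not well above background in replicate 3. The sperm-coating protein gene Crisp1 read 7.58 in replicate 1 and -1.82 in replicate 3, and was not well above background in replicate 2. For Adam7, another gene of the epididymal epithelium, the levels were 7.45 in replicate 1 and 0.37 in replicate 3, with replicate 2 not well above background. Of 25 listed epididymis markers, 24 had a probe; 22 of these were well above background in WAT replicate 1, 9 in replicate 2 and 14 in replicate 3. Their summed signal, in multiples of the array's 75th percentile, was 1315, 2.30 and 4.65 in the 3 WAT arrays and 4.38 to 6.22 in the 9 others. Lcn5 was the brightest in replicate 1. In the 90-week WAT arrays 12, 9 and 8 of the 24 were well above background. Only 15 of the 24 passed the filter, and 0 were called higher, 0 lower and 15 neither, with a list median of 0.11 (-0.60 without replicate 1).

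Genes of testis and seminal vesicle behaved alike in this array: 14 of 14 with a probe were well above background in WAT replicate 1 and 8 of 14 in each of replicates 2 and 3. Their summed signal was 95.9, 4.60 and 5.66 in WAT, with the sperm protamine gene Prm2 (5.68) the brightest in replicate 1, and 5.02 to 10.8 elsewhere. Of 15 listed, 7 were tested, with 1 higher (Svs5), 0 lower, 6 neither and a median of 2.13 (0.85 without replicate 1). At 90 weeks it was WAT replicate 2 that held 14 of 14, summed 19.2, beside 5.58 and 3.54 in the others. The part of these genes in the results was not tested beyond leaving out replicate 1.

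**Figure D1:**
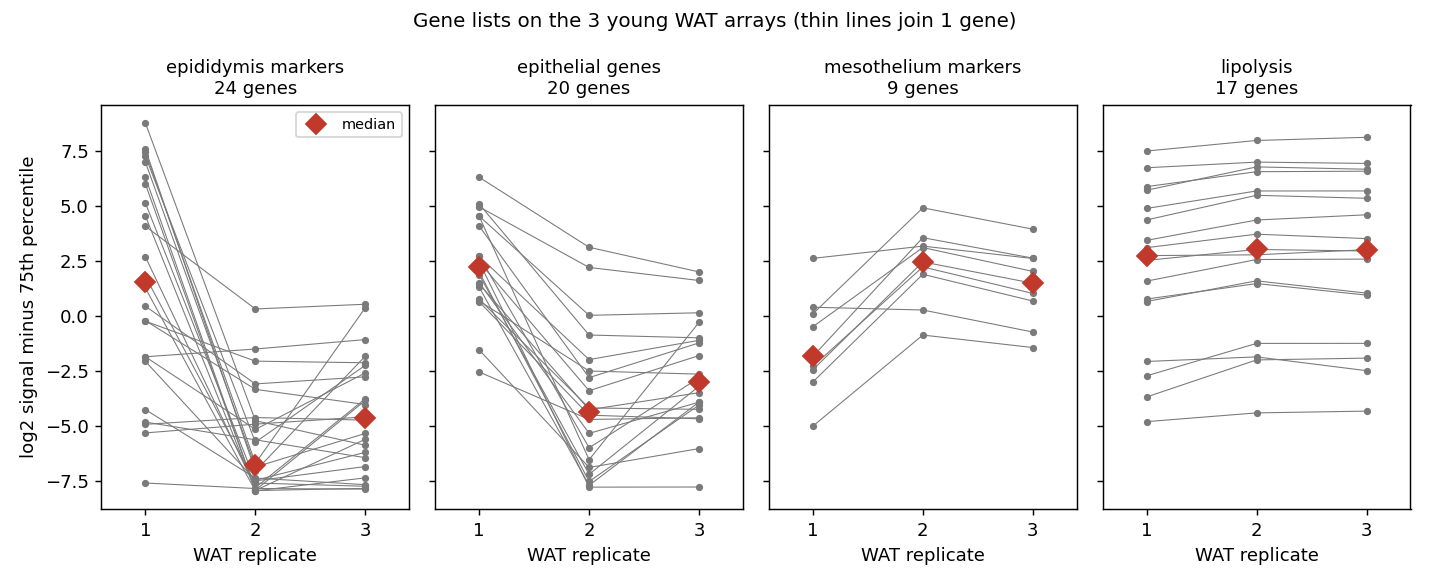
Levels of 4 gene lists in the 3 WAT arrays at 10 weeks. Each line is a gene and each diamond the median of its list.

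Of 33274 entries tested (18816 with a gene symbol), 560 were higher in WAT than in each of liver, lung and kidney (1.68%), and 169 were lower than in each (0.508%). A call took an adjusted p under 0.05 and at least 4-fold in each of the 3 comparisons. With symbols these were 351 genes higher and 143 lower. Among the genes called higher were Retn, Adipoq, Plin1, Plin4, Lipe, Pnpla2, Adrb3, Ebf2, Nid1 and Nid2. Among those called lower were Cyp2a5, Sult1d1, Akr1c14 and Krt23, and also Cdh1, although WAT replicate 1 lay above every liver array for it. The median difference from the nearest tissue was 2.84 among the higher and -2.78 among the lower. Lung was the nearest tissue for 292 of the 560, liver for 149 and kidney for 119. Without WAT replicate 1 the counts were 640 higher and 310 lower, with 528 and 156 shared with the full set, so the number of lower genes depended on that array. With normexp background correction the counts were 346 and 95, and with scaling to the spike-in spots 412 and 219, so the counts depended on the processing as well.

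Against 1 tissue at a time, WAT was higher than liver in 3351 entries (10.1%) and lower in 3204 (9.63%). The lung comparison gave 1742 higher (5.24%) and 2345 lower (7.05%). For kidney there were 2632 higher (7.91%) and 2599 lower (7.81%). The 3 comparisons share the WAT arrays. In 93 of the higher entries the probe was well above background on all 3 WAT arrays and on 0 of the others, and in 20 of the lower entries the reverse held. The median correlation of WAT with lung was 0.8881, with kidney 0.8364 and with liver 0.8054.

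**Figure D2:**
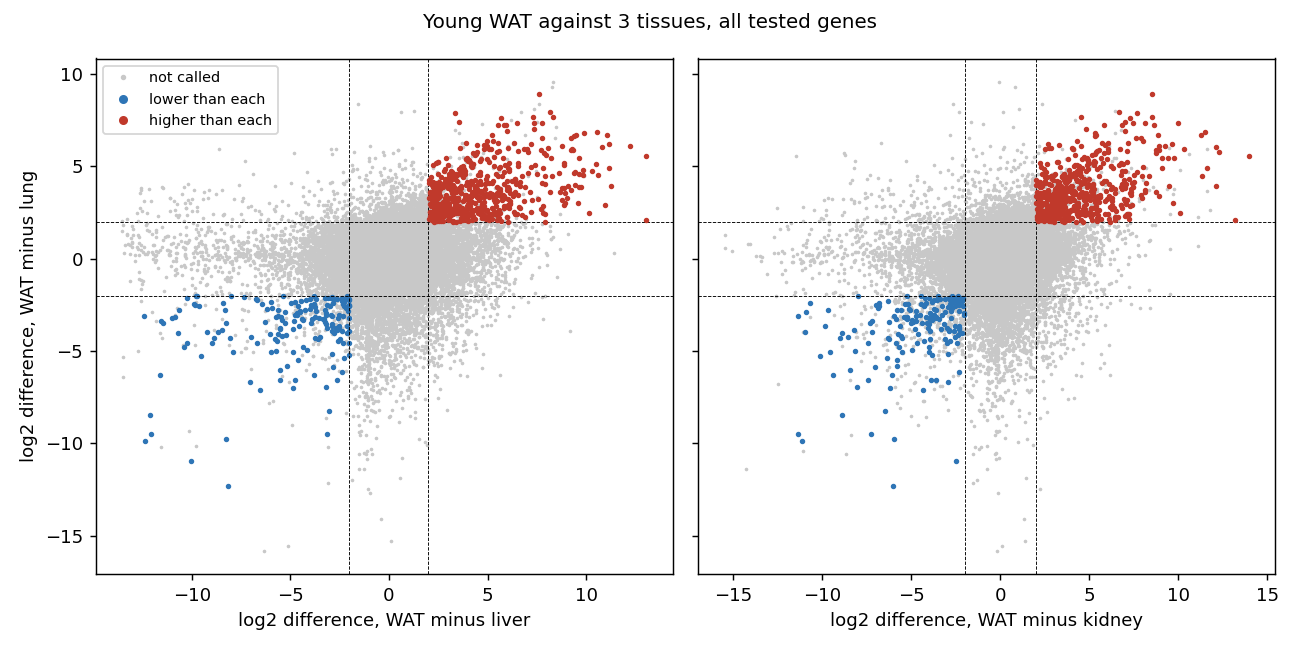
Difference of WAT from lung against its difference from liver (left) and from kidney (right) for every tested entry. Red marks entries higher than in each tissue, blue those lower than in each, and dashed lines the 4-fold limit.

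Genes are named by the size of the difference from the nearest tissue, with the standard error (SE) and the largest adjusted p of the 3 comparisons. Where arrays of 1 side were not well above background, a fold is a lower bound. It takes in each dim array the higher of the probe's own signal and the lowest signal among probes well above background. The call and the adjusted p beside a bound come from the signals as read, dim ones included, and not from the bound. Each group has 3 arrays. The SE and p-values rest on a spread per gene that is pooled over the 4 tissues. Where WAT arrays varied more than the others, that pooled spread is smaller than the spread in WAT. For Serinc2 the standard deviation was 2.34 in WAT and 0.12, 0.027 and 0.13 in liver, lung and kidney. In bulk tissue, fewer cells of a type and less RNA per cell cannot be told apart.

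Retn, which encodes the hormone resistin, had the largest difference among genes called higher and well above background on all 12 arrays. It stood at 7.99, 8.33 and 8.30 in WAT, -2.83, -3.15 and -2.58 in liver, 2.34, 1.76 and 0.42 in lung, and -1.69, -4.19 and -3.36 in kidney. Every WAT array lay above every other array, and WAT exceeded lung, the nearest tissue, by 6.70 (SE 0.61, 104-fold, adjusted p = 1.1e-05). Adipoq, the adiponectin gene, read 7.36, 8.35 and 8.33 in WAT and 2.76, 2.87 and 1.68 in lung; in liver it was not well above background, and in kidney only replicate 1 was (-2.98). Its difference from lung was 5.58 (SE 1.00, 47.8-fold, adjusted p = 0.00102). Sfrp5, a secreted Wnt inhibitor made by fat cells, was at 0.17, 2.07 and 2.52 in WAT, 2.77 above lung (SE 0.55, adjusted p = 0.00189), with replicate 1 the lowest of the WAT arrays yet above all others (3.48 without it).

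These were the 3 of 18 adipokines called higher, with 0 lower and 15 neither. The list median (WAT minus the mean of the 3 tissues) was 1.80, beside -0.12 over all tested entries. Over all tested entries 1.68% were called higher and 0.508% lower, so a list with 0 calls can still differ from single tissues. Among the 15 was Cfd, the gene of adipsin, at 8.40, 8.75 and 8.83 in WAT, 6.25, 6.34 and 5.49 in lung, -0.63, 2.94 and 0.28 in liver and 0.24, -4.90 and -4.75 in kidney. WAT was above every other array, but levels varied within liver and kidney and the comparison with lung did not pass (2.63, SE 1.28, adjusted p = 0.109). Lep, the leptin gene, did not stand out in young WAT: -0.44, -0.52 and 0.16, beside 0.32, 0.08 and -0.07 in liver, -1.54, -1.26 and -1.23 in lung and -1.27, -1.34 and -1.48 in kidney. The gene of vaspin, Serpina12, was well above background in liver alone.

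**Figure D3:**
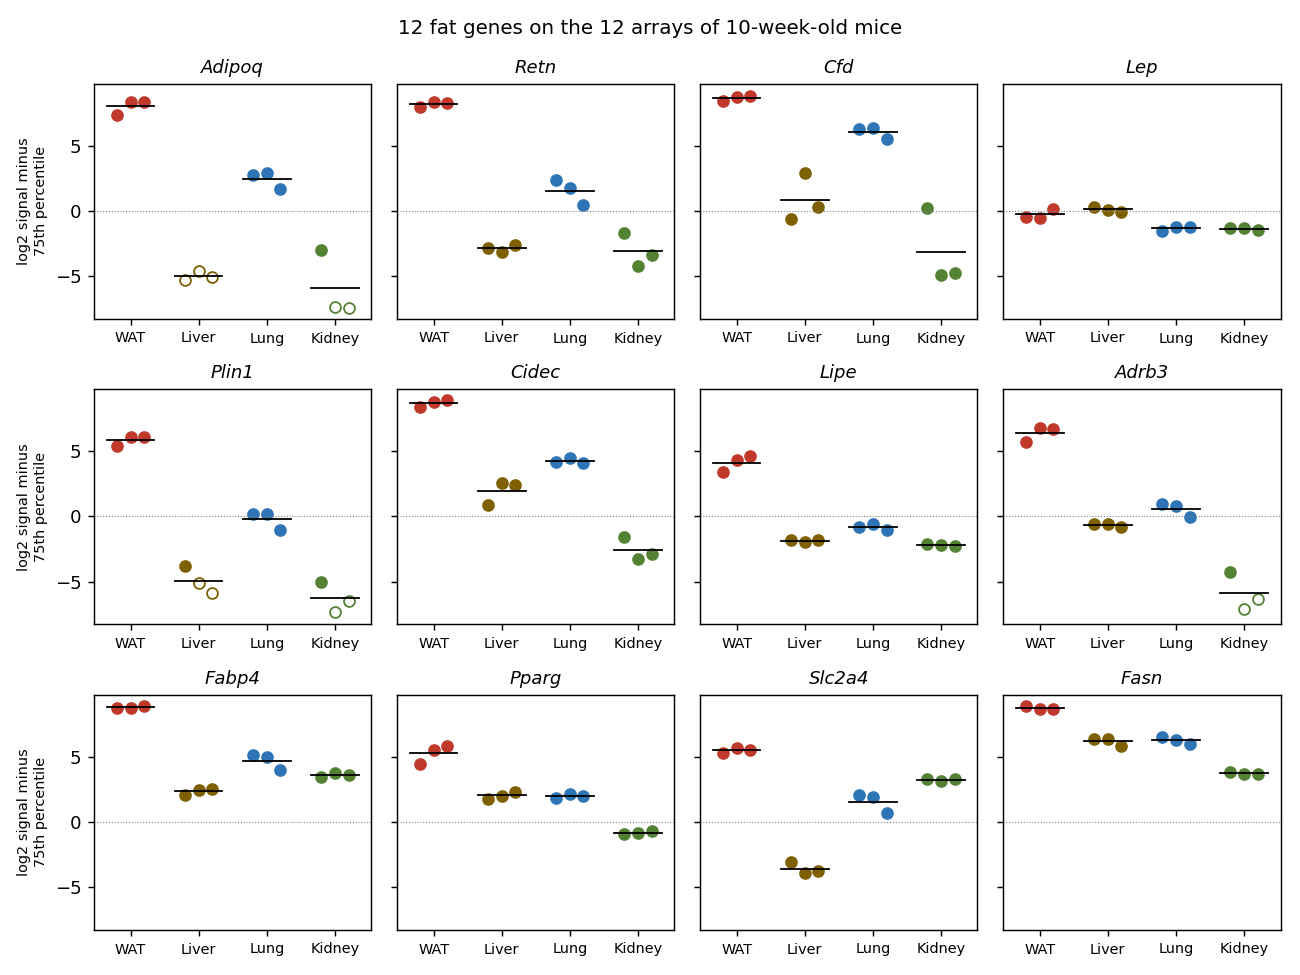
Levels of 12 fat genes in the 12 arrays at 10 weeks. Filled points are well above background, open points are not, and lines are group means.

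Several of the named genes are known from other tissues as well. Sncg encodes gamma-synuclein, a protein of neurons and adipocytes, and read 6.23, 7.69 and 7.71 in WAT, -1.69, -2.04 and -2.28 in liver, 0.64, 0.89 and 0.43 in lung and -0.36, -0.50 and -0.34 in kidney. Its distance from lung was 6.55 (SE 0.35, 93.9-fold, adjusted p = 3.0e-07). Cdsn, the gene of the skin adhesion protein corneodesmosin, was at 3.08, 3.91 and 3.74 in WAT, -4.10, -4.01 and -4.47 in liver, -2.38, -2.62 and -3.90 in lung and -4.07, -4.58 and -4.30 in kidney. It exceeded lung by 6.54 (SE 0.37, 93.1-fold, adjusted p = 4.5e-07). For both genes every WAT array lay above every other array.

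Adig, the adipogenin gene, which takes part in adipocyte differentiation, stood at 5.95, 6.36 and 6.14 in WAT, 1.08, 0.86 and 0.06 in lung, -3.27, -3.46 and -3.76 in liver and -2.95, -3.33 and -3.51 in kidney. The difference from lung was 5.48 (SE 0.26, 44.8-fold, adjusted p = 1.5e-07). Ccdc80, which encodes a secreted matrix protein, was at 5.91, 7.31 and 7.20 in WAT, 2.04, 2.43 and 1.80 in lung, 0.72, 1.18 and 0.97 in liver and -0.90, -0.95 and -0.81 in kidney, 4.72 above lung (SE 0.33, adjusted p = 1.8e-06). In each of these genes lung ranked after WAT, and kidney or liver was lowest. Adgrg2, an adhesion receptor best known from the epididymis, read 2.57, 2.42 and 2.48 in WAT, so that replicate 1 did not differ from the others. It was at -3.51, -2.69 and -2.23 in liver, -2.75, -2.36 and -2.53 in lung and -3.69, -3.76 and -3.72 in kidney, and exceeded lung by 5.04 (SE 0.26, adjusted p = 2.5e-07).

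Lipid droplet proteins gave 3 genes higher, 1 lower and 12 neither of 16, with a median of 2.26. Plin1 encodes perilipin 1, the coat of the adipocyte droplet and gatekeeper of lipolysis, and was at 5.39, 6.12 and 6.10 in WAT and 0.18, 0.21 and -1.01 in lung. In liver and in kidney only replicate 1 was well above background (-3.80 and -5.04). WAT exceeded lung by 6.08 (SE 0.64, adjusted p = 3.3e-05). Plin4, which coats small new droplets, stood at 6.96, 7.95 and 8.01 in WAT, 0.44, 2.53 and 2.61 in liver, 2.17, 2.79 and 1.52 in lung and -1.93, -2.19 and -2.23 in kidney, 5.48 above lung (SE 0.56, adjusted p = 2.5e-05). Cidec, whose product fuses droplets into the single large one, was at 8.40, 8.80 and 8.93 in WAT and 4.13, 4.45 and 4.06 in lung, 4.49 apart (SE 0.49, adjusted p = 4.1e-05).

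Kidney was the lowest tissue for Plin4 and Cidec. The gene that went the other way was Fitm1, a droplet-forming protein of muscle, well above background in WAT only in replicate 1 (-4.18) and at 1.48, 2.84 and 1.76 in liver, -1.95, -2.11 and -3.59 in lung and 1.60, 1.75 and 1.94 in kidney (at least 6.34-fold lower than in lung, adjusted p = 0.00304). With normexp it was not called. Cidea, related to Cidec and abundant in brown fat, read 0.49, 0.26 and 0.50 in WAT and 0.78, 0.70 and 0.67 in lung.

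Lipolysis genes were among the most often called: 7 of 17 higher, 0 lower and 10 neither, with a median of 3.07. Adrb3, the adrenergic receptor that starts lipolysis in rodent fat cells, stood at 5.71, 6.77 and 6.67 in WAT, -0.56, -0.58 and -0.82 in liver and 0.98, 0.81 and -0.04 in lung, and in kidney only replicate 1 (-4.27) was well above background. WAT exceeded lung by 5.80 (SE 0.61, adjusted p = 3.1e-05). Lipe, the gene of hormone-sensitive lipase, was at 3.43, 4.36 and 4.60 in WAT, -1.83, -1.98 and -1.82 in liver, -0.82, -0.58 and -1.03 in lung and -2.09, -2.20 and -2.24 in kidney, 4.94 above lung (SE 0.26, 30.6-fold, adjusted p = 2.5e-07). Pnpla2, which encodes the lipase that takes the first fatty acid, was bright in all tissues, at 7.49, 7.97 and 8.12 in WAT and 5.02, 5.59 and 5.66 in liver, 2.44 apart (SE 0.20, adjusted p = 3.2e-06).

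The other lipolysis genes called higher act around the lipases. Hcar1, the lactate receptor that restrains lipolysis, read 0.76, 1.47 and 0.95 in WAT and -3.60, -4.13 and -4.35 in lung, a difference of 5.09 (SE 0.37, adjusted p = 2.5e-06). Prkar2b, a regulatory subunit of protein kinase A, differed from lung by 3.60 (SE 0.21, adjusted p = 5.6e-07). Npr3, the clearance receptor for natriuretic peptides, was 2.48 above lung (adjusted p = 5.3e-05). Aqp7, the glycerol channel of fat cells, was 2.35 above kidney (adjusted p = 1.3e-05). The monoglyceride lipase gene Mgll was 1.67 above liver (adjusted p = 1.6e-05), under the 4-fold limit.

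Fatty acid uptake and triglyceride synthesis had 3 genes higher, 0 lower and 17 neither of 20 (median 1.46). Lpl, the lipase that frees fatty acids from lipoproteins at the vessel wall, stood at 7.91, 8.20 and 8.22 in WAT, 5.70, 6.01 and 5.88 in kidney, 4.12, 4.27 and 4.22 in lung and 2.07, 2.29 and 1.97 in liver. It exceeded kidney by 2.24 (SE 0.14, adjusted p = 4.2e-07), and its tissues did not overlap. Slc27a1, a fatty acid transporter, was 2.51 above kidney (adjusted p = 3.0e-06). Dgat1, an enzyme of the last step of triglyceride synthesis, was 2.40 above liver (adjusted p = 1.9e-07). Dgat2, the other enzyme of that step, was at 7.77, 7.79 and 8.11 in WAT and 7.51, 7.74 and 7.48 in liver, a difference of 0.31 (adjusted p = 0.19).

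Fatty acid binding proteins differ by tissue, and 1 of 7 tested was higher, 0 lower and 6 neither (median -2.60; Fabp6 and Fabp9 did not pass the filter). The 1 was Fabp4, the binding protein of fat cells and macrophages, at 8.74, 8.72 and 8.86 in WAT, 5.10, 4.98 and 4.01 in lung, 3.41, 3.76 and 3.57 in kidney and 2.05, 2.47 and 2.53 in liver. Its difference from lung was 4.08 (SE 0.26, 16.9-fold, adjusted p = 1.0e-06).

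Lipogenesis gave 2 higher, 0 lower and 13 neither of 15 (median 1.1). Fasn, the fatty acid synthase gene, was at 8.89, 8.65 and 8.66 in WAT, 6.38, 6.39 and 5.82 in liver, 6.52, 6.30 and 5.97 in lung and 3.83, 3.71 and 3.70 in kidney, 2.47 above lung (SE 0.19, adjusted p = 3.0e-06). Acaca, which encodes the carboxylase that makes malonyl-CoA, was 2.15 above liver (SE 0.17, adjusted p = 2.2e-06). Scd1, a desaturase, was at 7.99, 8.13 and 8.19 in WAT and 8.92, 8.17 and 7.70 in liver, and the ranges overlapped. At 90 weeks 0 of the lipogenesis genes were called higher.

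Among adipogenic transcription factors 5 of 19 were higher, 0 lower and 14 neither (median 0.40). Pparg, the master regulator of adipocyte differentiation, stood at 4.44, 5.55 and 5.79 in WAT, 1.79, 1.98 and 2.31 in liver, 1.83, 2.12 and 2.0 in lung and -0.91, -0.85 and -0.71 in kidney, 3.23 above liver (SE 0.30, 9.40-fold, adjusted p = 1.2e-05). The 3 listed early B-cell factors, which act beside it in fat cell precursors, were called. Ebf2 read 0.65, 2.19 and 1.98 in WAT and -3.65, -3.56 and -4.41 in lung, and was not well above background in liver and kidney (5.48 above lung, adjusted p = 1.4e-06). Ebf3 was 5.55 above kidney (adjusted p = 1.3e-07). The difference of Ebf1 from lung was 3.0 (adjusted p = 0.000206). Zfp423, a zinc-finger factor of committed preadipocytes, was 3.60 above lung (adjusted p = 6.9e-05). Cebpa, the partner of Pparg in fat cells and a liver factor as well, was at 4.17, 5.17 and 5.02 in WAT and 4.72, 4.79 and 4.96 in liver.

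Insulin signalling and glucose uptake had 3 genes higher, 0 lower and 12 neither of 15 (median 0.34). Slc2a4, which encodes the insulin-responsive glucose transporter, was at 5.24, 5.66 and 5.53 in WAT, 3.28, 3.10 and 3.31 in kidney, 2.04, 1.89 and 0.68 in lung and -3.07, -3.91 and -3.75 in liver. WAT exceeded kidney by 2.25 (SE 0.34, adjusted p = 0.000281). Trarg1, a partner of that transporter in its vesicles, was 3.73 above lung (adjusted p = 4.7e-05).

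Thermogenic genes gave 0 higher, 0 lower and 13 neither of 13 tested (median -0.44). Ucp1, the uncoupling protein of brown fat, did not pass the filter; it was well above background in lung replicates 2 and 3 and in no WAT array. Cox8b, a cytochrome oxidase subunit of brown fat and muscle, was at 2.90, 2.53 and 2.65 in WAT and 3.0, 2.71 and 1.81 in lung. Prdm16, a factor of brown and beige fat, read -1.95, -1.26 and -1.39 in WAT and 0.72, 0.77 and 0.71 in lung. The lung arrays thus read genes of fat, Adipoq and Ucp1 among them, and kidney replicate 1 alone of its tissue read Adipoq, Plin1 and Adrb3 above background. The part of fat in these samples was not tested.

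Fatty acid oxidation and ketogenesis had 0 higher, 0 lower and 17 neither of 17 (median -0.45). Against single tissues, WAT was lower than liver in 9 of the 17 (9.63% over all entries) and than kidney in 4. It was higher than lung in 4. Branched-chain amino acid breakdown likewise had 0, 0 and 17 of 17 (median 0.58). There WAT was higher than lung in 9 (5.24% over all entries) and than liver in 3, and lower than kidney in 1. Bcat2, the first enzyme of that breakdown outside liver, stood at 3.02, 3.91 and 4.05 in WAT and 2.40, 2.22 and 2.31 in kidney. The difference was 1.35 (adjusted p = 0.000596), under the 4-fold limit.

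**Figure D4:**
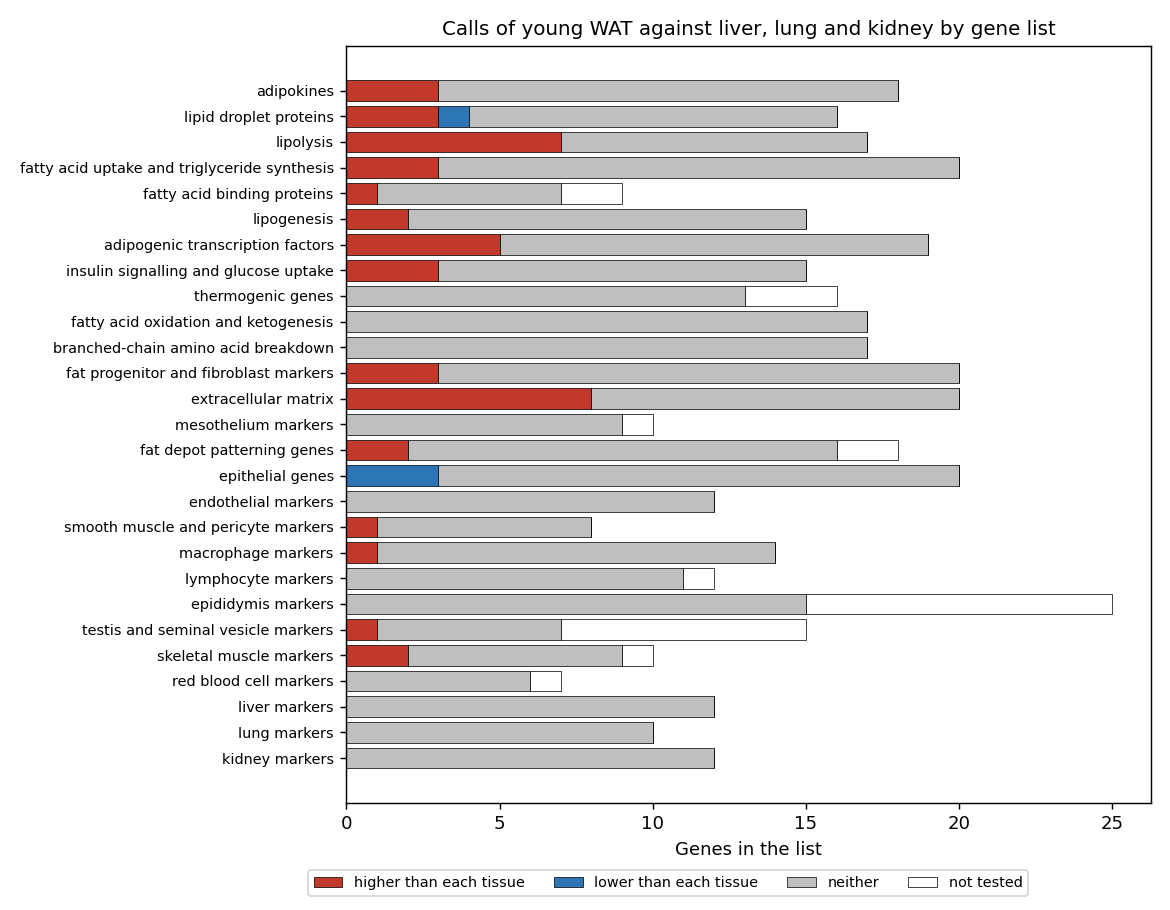
Genes of the 27 lists called higher in WAT than in each other tissue, lower than in each, neither, or not tested.

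The extracellular matrix list had the largest share of calls after lipolysis and the highest median, 3.67, with 8 higher, 0 lower and 12 neither of 20. Col5a3, a chain of fibril-regulating collagen V, was at 6.00, 5.99 and 6.17 in WAT, 2.52, 2.66 and 2.93 in liver, -1.52, -1.86 and -2.17 in lung and -1.55, -1.64 and -1.61 in kidney, 3.35 above liver (SE 0.17, adjusted p = 7.0e-08). The nidogens, which link laminin to collagen in basement membranes, were both called. Nid2 exceeded kidney by 3.17 (adjusted p = 1.1e-06). Nid1 exceeded lung by 2.78 (adjusted p = 5.2e-06). Col15a1, a basement membrane collagen, was 2.92 above kidney (adjusted p = 0.000159). Col5a1, Col3a1, Fbn1 and Lama4 made up the 8. Scaled to the spike-in spots, 3 of the 20 were called, and at 90 weeks 2. The spike-in scaling also took 1 call each from the adipokines, lipogenesis, insulin signalling, depot patterning and skeletal muscle lists, and gave 1 more to the adipogenic factors. It made 1 gene lower in each of the oxidation and thermogenic lists.

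Fat progenitor and fibroblast markers had 3 higher, 0 lower and 17 neither of 20 (median 1.77). Fap, a surface protease of fibroblasts, read 0.85, 1.68 and 1.41 in WAT and -2.93, -2.75 and -3.09 in lung, 4.23 apart (adjusted p = 3.0e-06). Lum, the gene of the collagen-binding lumican, was 3.15 above liver (adjusted p = 5.2e-06). Gdf10, a growth factor of the TGF-beta family, was 2.60 above liver (adjusted p = 7.4e-06). Pdgfra, a receptor that marks progenitors in fat and fibroblasts in lung, was at 1.52, 2.39 and 1.91 in WAT and 3.56, 3.46 and 3.24 in lung.

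Depot patterning genes had 2 higher, 0 lower and 14 neither of 16 tested (median 1.64). Hoxc8 was at 2.35, 3.35 and 3.24 in WAT and -1.36, -1.69 and -1.59 in kidney, 4.52 apart (adjusted p = 9.0e-07). Tbx18 was 2.60 above lung (adjusted p = 0.000562). Tbx15 and En1, known from subcutaneous and brown depots, did not pass the filter and were not well above background in any WAT array.

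Mesothelium markers had 0 higher, 0 lower and 9 neither of 9 tested, with a median of 2.46 (3.91 without replicate 1). Against single tissues, WAT was higher than liver in 9, than kidney in 6 and than lung in 1. It was lower than kidney in 2 and than lung in 1. Msln, the mesothelin gene and the brightest in WAT replicate 2, stood at 0.09, 4.91 and 3.94 in WAT, and Wt1, a transcription factor of mesothelium and kidney podocytes, at -0.49, 3.11 and 2.02. Upk3b, a uroplakin of mesothelium, was at -1.84, 3.56 and 2.63. The summed signal was 10.0, 75.2 and 39.1 in the 3 WAT arrays, 54.2 to 77.7 in lung, 1.45 to 3.07 in liver and 15.0 to 17.8 in kidney, so that replicate 1 was the low array in WAT.

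Genes well above background in WAT and in no other array included a hormone receptor and a calcium sensor. Such genes passed the filter through their WAT arrays alone, and their dim signal elsewhere is part of how they were chosen. Tshr, the receptor of thyrotropin, known in fat cells as well as thyroid, was at 0.39, 0.96 and 0.96 in WAT, at least 42.7-fold higher (adjusted p = 7.3e-07). Hpca, the neuronal calcium sensor hippocalcin, was at -0.11, 0.38 and 0.61, at least 30.8-fold (adjusted p = 3.9e-07), and its other probe fell short of the 4-fold limit (1.70). In both genes the 9 other arrays were not well above background, and no order among them is given.

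Trhde, an enzyme that degrades thyrotropin-releasing hormone, was at -1.71, -1.32 and -1.03 in WAT, at least 9.71-fold higher (adjusted p = 5.9e-06). Accsl, named for likeness to a plant enzyme of ethylene synthesis, was at -2.19, -0.96 and -1.04, at least 9.51-fold (adjusted p = 9.6e-07). Prr32, the gene of a proline-rich protein, was at -2.83, -0.57 and -0.97, at least 9.17-fold (adjusted p = 0.000114), or 14.8-fold without replicate 1. Syt12, a synaptotagmin, was at -1.75, -2.02 and -0.97, at least 8.41-fold (adjusted p = 1.2e-05). The last was Svs5, a seminal vesicle secretory protein, at 2.13 in replicate 1 and -2.46 and -3.10 in the others, at least 11.4-fold (adjusted p = 0.00725). Without replicate 1 it was still called, though its bound of 3.66-fold lay under the 4-fold limit. With normexp correction Svs5, Trhde and Syt12 were no longer called.

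Among the genes named as lower in WAT, the largest differences were those of the 3 genes Cyp2a5, Cyp2a4 and Cyp2a22. Cyp2a5, which encodes the coumarin hydroxylase of liver, stood at -3.84, -5.10 and -2.46 in WAT, 8.02, 8.76 and 8.89 in liver, 5.69, 6.61 and 5.93 in lung and 7.04, 7.43 and 7.49 in kidney. The difference from lung was -9.88 (SE 0.55, adjusted p = 4.1e-07). Cyp2a4, a steroid hydroxylase, was at -4.60, -4.85 and -3.18 in WAT, 7.22, 8.07 and 8.21 in liver, 4.77, 5.84 and 5.20 in lung and 6.90, 7.14 and 7.30 in kidney (-9.48 from lung, SE 0.44, adjusted p = 1.2e-07). Cyp2a22, of the same family, was not well above background in WAT and at 4.76, 5.29 and 5.21 in liver, 0.86, 2.09 and 1.32 in lung and 1.23, 2.08 and 2.22 in kidney, at least 133-fold lower (adjusted p = 1.4e-07). The 3 are close copies, and whether their probes read one another's RNA was not tested.

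Genes of some other metabolic enzymes were also called lower. Sult1d1, a sulfotransferase, was at -2.62, -5.66 and -3.88 in WAT, 4.01, 3.90 and 3.57 in liver, 1.02, 1.32 and 0.65 in lung and 5.42, 5.58 and 5.54 in kidney (-5.05 from lung, SE 0.58, adjusted p = 5.9e-05; -5.77 without WAT replicate 1). Akr1c14, a hydroxysteroid dehydrogenase, was at -2.52, -1.47 and -1.16 in WAT, 5.13, 5.04 and 4.76 in liver, 2.63, 3.02 and 2.92 in lung and 3.75, 4.19 and 4.47 in kidney (-4.57 from lung, SE 0.32, adjusted p = 1.8e-06). Acox2, the peroxisomal oxidase of bile acid precursors, was at -1.70, -3.64 and -2.44 in WAT, 6.31, 6.63 and 6.12 in liver, 1.78, 2.20 and 1.86 in lung and 4.70, 4.80 and 4.95 in kidney (-4.54 from lung, SE 0.39, adjusted p = 7.8e-06). In these genes WAT was lowest and lung next, with no overlap. Ces1g, a carboxylesterase, was not well above background in WAT, at least 24.8-fold lower than in lung (adjusted p = 4.9e-07). Lrat, which esterifies retinol, was likewise dim in WAT, at least 6.26-fold lower than in kidney (adjusted p = 7.4e-06).

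Spp1, the gene of osteopontin, was at -0.96, -3.20 and -3.12 in WAT, 2.57, 2.71 and 4.01 in liver, 3.55, 3.80 and 3.48 in lung and 6.02, 5.93 and 6.03 in kidney, -5.52 from liver (SE 0.56, adjusted p = 1.3e-05). Serinc2, of a family of serine incorporators, was at -0.54, -5.11 and -3.74 in WAT, 1.62, 1.85 and 1.68 in liver, 1.97, 1.92 and 1.95 in lung and 2.35, 2.28 and 2.53 in kidney, -4.85 from liver (SE 0.86, adjusted p = 0.000729). In both genes WAT replicate 1 was the highest of the WAT arrays, and without it the differences were -6.25 for Spp1 and -6.15 for Serinc2.

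The remaining genes were not well above background in any WAT array. Krt23, an epithelial keratin, was at 1.33, 1.17 and 1.16 in liver, 2.93, 2.58 and 2.71 in lung and -1.14, -1.04 and -0.93 in kidney, at least 24.1-fold lower in WAT (adjusted p = 3.1e-08). Sec14l3, of a family of lipid-binding proteins, was brightest in lung (4.98, 4.92 and 4.89) and at least 19.5-fold lower in WAT than in kidney (adjusted p = 4.8e-07), although its other probe fell short of the 4-fold limit (-0.35). Nipal1, a magnesium transporter, was at least 5.73-fold lower than in kidney (adjusted p = 0.000151), and its other probe fell short of the limit (-1.65). Fam25c, brightest in liver (4.06, 4.74 and 4.83), was at least 4.03-fold lower than in lung (adjusted p = 0.000165). Nipal1 and Fam25c were no longer called with normexp.

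Epithelial genes had 0 higher, 3 lower and 17 neither of 20, with a median of -2.29. Cdh1, the gene of E-cadherin, was at 2.0 in WAT replicate 1, -4.05 in replicate 3 and not well above background in replicate 2. Liver was at 1.92, 1.61 and 1.5, lung at 3.92, 3.82 and 3.69 and kidney at 3.0, 2.99 and 3.01. By group means it was at least 19.5-fold lower than in liver (adjusted p = 0.0315), but WAT replicate 1 lay above every liver array. Ocln, a tight junction protein, was well above background in WAT replicate 1 alone and at least 8.64-fold lower than in liver (adjusted p = 0.0141). Esrp2, a splicing factor of epithelia, differed from lung by -2.77 (adjusted p = 0.0483), or -4.42 without WAT replicate 1. Without WAT replicate 1, 9 of the 20 were lower, with a median of -4.02, and at 90 weeks 10 of 20. The summed signal was 253, 15.8 and 11.5 in the WAT arrays, with 20, 13 and 18 genes well above background, beside 216 to 220 in liver, 182 to 184 in lung and 278 to 299 in kidney. Replicate 1 thus carried epithelial genes along with those of the epididymis.

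Vessel and immune markers were present in WAT. Endothelial markers had 0 higher, 0 lower and 12 neither of 12 (median 0.35); their summed signal was 91.7, 134 and 148 in WAT, 329 to 368 in lung, 34.3 to 40.9 in liver and 50.7 to 57.4 in kidney, led by Egfl7. Smooth muscle and pericyte markers had 1 higher, 0 lower and 7 neither of 8 (median 1.12), the 1 being Rgs5 of pericytes, 2.49 above liver (adjusted p = 1.8e-05); WAT summed to 63.1, 81.2 and 83.2, with Acta2 the brightest, lung to 112 to 140, liver to 24.7 to 29.0 and kidney to 25.8 to 29.8. Macrophage markers had 1 higher, 0 lower and 13 neither of 14 (median 2.11). It was Cd209f, a lectin of resident macrophages, at 2.81, 4.51 and 4.03 in WAT and 0.12, 0.22 and -0.85 in lung (3.95, adjusted p = 0.000182). Macrophage markers summed to 73.7, 238 and 183 in WAT, with Csf1r the brightest. The sums were 157 to 201 in lung, 69.2 to 89.1 in liver and 24.3 to 27.8 in kidney. At 90 weeks they were 939, 448 and 664 in WAT and 331, 332 and 277 in liver. Lung at that age summed to 205, 152 and 334, and kidney to 177, 144 and 120. Lymphocyte markers had 0 higher, 0 lower and 11 neither of 11 tested (median -1.07, or -0.62 without WAT replicate 1) and summed to 5.98, 7.90 and 8.23 in WAT, led by Cd4, to 43.7 to 61.2 in liver, 17.2 to 25.2 in lung and 7.08 to 8.69 in kidney. Cd4 (5.55, 5.79 and 5.26) made up most of the liver sum, and the list median was -2.09, -2.47 and -2.73 in liver beside 0.86, 0.81 and -0.25 in lung. The part of these cells in the differences was not tested.

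Skeletal muscle markers had 2 higher, 0 lower and 7 neither of 9 tested (median 0.16, or -0.71 without WAT replicate 1). They were the myosin genes Myh1, at -1.15, -4.60 and -4.81 in WAT and at least 2.19-fold higher, and Myh2, at -1.54, -3.71 and -4.28 and at least 2.78-fold. Without replicate 1 only Myh1 was called, though its bound fell to 0.962-fold, and with normexp 0 were. The list summed to 4.38, 3.05 and 3.49 in WAT, led by Acta1, and to 19.5, 15.5 and 7.12 in lung, led by Mb; Myh4 was not well above background in any WAT array. Red blood cell markers had 0 higher, 0 lower and 6 neither of 6 tested (median 1.36). Hba-a1 led their sum of 458, 704 and 873 in WAT, 116 to 355 in liver, 83.8 to 449 in lung and 21.3 to 781 in kidney, so the sum of these markers varied within tissues. The part of muscle and blood was not tested.

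The labels of the other tissues were met by their own markers, most of which were lower in WAT than in their own tissue. WAT was lower than liver in 11 of 12 liver markers, lower than lung in 10 of 10 lung markers and lower than kidney in 12 of 12 kidney markers; none was higher or lower than in each tissue, so that 12, 10 and 12 were neither, with medians of -3.44, -3.33 and -3.50. The liver gene that did not pass was Cyp2e1, an ethanol-oxidizing cytochrome, at 7.21, 8.18 and 8.33 in WAT and 9.72, 9.69 and 9.71 in liver. It was the brightest of the liver markers in WAT, whose sum was 159, 303 and 357 beside 8170 to 9016 in liver. Lung markers summed to 6.24, 4.02 and 4.43 in WAT (brightest Ager) and 2402 to 2489 in lung. Kidney markers summed to 6.37, 1.54 and 1.52 in WAT and 1512 to 1751 in kidney; the brightest in WAT replicate 1 was Lrp2. Sftpa1, Sftpb and Sftpd of lung and Slc12a1, Slc12a3 and Calb1 of kidney were not well above background in any WAT array.

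The same comparison at 90 weeks, on 12 other arrays, gave 434 higher and 285 lower of 33066 entries. Of the higher entries 262 were shared, 46.8% of those at 10 weeks and 60.4% of those at 90 weeks; of the lower, 101 were shared, 59.8% and 35.4%. The difference of WAT from the mean of the 3 tissues changed between the ages in 3705 entries (11.1%), among them 174 of the 560 higher and 34 of the 169 lower. Retn, Adipoq, Plin1, Cidec, Lipe, Adrb3, Fabp4 and Pparg were called higher at both ages. Spp1 was at 3.44, 2.21 and 5.30 in WAT at 90 weeks, above every WAT array at 10 weeks, and Cfd was called higher at 90 weeks. The 90-week mice were other animals, and 1 of their WAT arrays carried the genes of testis and seminal vesicle given above.

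Promoter sequences were in the reference for 257 of the 351 genes higher and 106 of the 143 lower. TTGCNNAA, the core bound by C/EBP factors, was found in 33 of the 257 (12.8%), in 19 of the 106 (17.9%) and in 1654 of 14833 genes tested (11.2%). A pair of exact AGGTCA copies with 1 base between, a strict form of the PPAR and RXR site, was found in 0 of the 257, 0 of the 106 and 10 of the 14833 (0.0674%). With so rare a match, the counts of 0 tell nothing about looser sites or sites outside these stretches. These shares were not tested and are given as a description; Plin1 and Pparg were chosen for display after their values were seen. The Plin1 stretch is chr7:79732727-79733026 and the Pparg stretch chr6:115421816-115422115 of GRCm38.p6, on the minus and plus strand, with matches on either strand in capitals.
Plin1: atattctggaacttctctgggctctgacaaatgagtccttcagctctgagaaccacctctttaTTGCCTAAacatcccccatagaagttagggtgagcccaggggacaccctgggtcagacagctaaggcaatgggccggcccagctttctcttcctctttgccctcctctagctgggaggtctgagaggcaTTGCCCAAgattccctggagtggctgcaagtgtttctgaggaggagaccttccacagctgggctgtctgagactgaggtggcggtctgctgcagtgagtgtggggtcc
Pparg: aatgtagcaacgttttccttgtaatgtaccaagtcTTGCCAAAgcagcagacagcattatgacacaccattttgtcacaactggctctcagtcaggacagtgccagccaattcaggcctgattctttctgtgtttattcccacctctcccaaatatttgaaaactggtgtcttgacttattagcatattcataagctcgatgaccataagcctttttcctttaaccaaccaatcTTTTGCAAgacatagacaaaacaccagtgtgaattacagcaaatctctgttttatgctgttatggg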

How the data were processed

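RNA of liver, lung, kidney and WAT from C57BL/6J males was measured in 1 colour (Cy3) on 24 Agilent arrays. Per the file headers, the deposited values are background-subtracted spot intensity, from Agilent Feature Extraction 11.0.1.1 on a mouse design, not scaled between arrays; the study's methods name a human kit. Spots marked as non-uniform or as outliers (1841 in all, at most 135 on an array) were left out, and log2 signals were set relative to each array's 75th percentile over non-control probes. Of 56605 probes, 32994 (58.3%) matched 22911 RefSeq symbols of GRCm38.p6; the rest kept their accession. An entry was tested, by its brightest probe, if 3 or more of the 12 young arrays read it well above background. Between 58.6% and 69.8% of probes were well above background on the young arrays.

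Groups were compared with limma 3.58.1 (lmFit and eBayes, R 4.3.3, data.table in version 1.17.8), unpaired, with Benjamini-Hochberg adjustment per comparison. Named genes were drawn from the 8 with the largest difference from the nearest tissue among genes called higher and bright on all 12 arrays, the 8 with the largest bound among those bright on all WAT arrays and on none of the others, 7 of each kind among genes called lower, and members of the 27 lists. The members and lists were chosen with earlier results of these data known. Alternatives tried were background correction, normalization, scaling, filter, probe summary, test, fold limit, leaving out each array, a block for replicate number, and the 90-week arrays. Code was tested on simulated data.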

Additional observations from a re-analysis of the deposited data

Results flagged for a closer look

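Of the 30 genes named by size, 5 differed between ages in the difference of WAT from the mean of the other 3 tissues, by at least 4-fold. That of Adgrg2 changed by -2.69 from 10 to 90 weeks (SE 0.58, adjusted p = 0.00752), with WAT at 0.12, 1.21 and 2.30 and kidney at 0.36, -0.05 and -0.40 at 90 weeks. Adgrg2 was no longer called higher at that age. For Trhde the change was -3.64 (SE 1.11, adjusted p = 0.0421) and for Syt12 it was also -3.64 (SE 0.72, adjusted p = 0.00401); neither was called higher at 90 weeks. Both genes were not well above background in the other 3 tissues at 10 weeks, so the sizes of their changes rest on dim signals. Spp1 changed by 5.24 (SE 0.75, adjusted p = 0.00046) and was no longer lower in WAT at 90 weeks. The change of Krt23 was 2.66 (SE 0.37, adjusted p = 0.000326), with liver at -2.69, -2.44 and -1.93 at 90 weeks, below its levels at 10 weeks; it was not well above background in WAT at 10 weeks, so this size too rests on dim signals. What lay behind these changes was not tested.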

How the results depend on the processing

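The main counts were 560 higher and 169 lower. They were 591 and 149 after quantile normalization, 558 and 168 with median scaling, and between 557 and 569 higher and between 163 and 180 lower with other filters, the mean of probes or all 24 arrays in 1 fit. With normexp background correction they were 346 and 95; with spike-in scaling 412 and 219, a share of 65.3% higher beside 76.8%. That scaling shifted the median difference from liver from -0.25 to 0.33 and from lung from 0.11 to -0.75. With the methods' t-test after adjustment 498 and 107 were called. At least 2-fold gave 1385 and 772, at least 8-fold 251 and 71, and WAT against the mean of the 3 tissues 1711 and 1748. At 90 weeks the counts were 434 and 285. Against liver and kidney alone, an alternative chosen after seeing the data because lung read fat genes, they were 1588 and 969. Leaving out 1 array at a time gave 519 to 640 higher and 133 to 310 lower, the highest of both without WAT replicate 1. Other than by fewer or more tissues and the fold limit itself, the cause of these moves was not tested.

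With the replicate number as a block, 559 and 166 were called. Of 18 same-number pairs 0 had a correlation of deviations over 0.1 (range -0.114 to 0.0925). Tissues of the same mouse need not share such deviations, so these values cannot decide whether the numbers pair the samples. The 30 genes named by the size of their difference kept direction and call in 620 of 630 refits, with 10 weaker (5 with normexp, 5 at 90 weeks) and 0 reversed. Other list members were refitted under fewer settings; normexp ended the calls of Myh1, Myh2 and Fitm1. Signals near background limit the bounded folds, and the slide limits every difference between tissues.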
